A study of Mus musculus with 48 samples.

Results

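The ATP-binding cassette (ABC) transporters of subfamilies A to G were followed by RNA sequencing in endothelial cells sorted from heart, lung and skeletal muscle of mice. The members were the rows of the deposited count table whose symbol is Abc, a subfamily letter from a to g and a number, with or without a further letter. These were 41 of 15569 listed genes, after 1 further subfamily C gene was set aside. All mice were Abcg2CreERT;ROSATdTomato, in which a tamoxifen-inducible Cre recombinase under the control of Abcg2, itself a member, switches on the red fluorescent protein TdTomato. Every mouse, whatever the group, received 50 mg/kg tamoxifen in the peritoneum 24 h before its tissues were taken. CD31+CD45-Ter119- cells, carrying the surface protein CD31 of endothelium and lacking CD45 and Ter119 of blood cells, were split by TdTomato. The submitters call the TdTomato+ fraction vascular endothelial stem cells and the TdTomato- fraction mature endothelial cells. Heart was taken at postnatal day 1 (P1) and 6 weeks (6W), lung at P1, and muscle at postnatal day 6 (P6) and 6W. The labels do not say whether the Cre allele leaves Abcg2 intact, nor how many animals gave a library. The p-values therefore rest on the spread between libraries, which may in part be technical. Of 48 libraries, those of P1 heart pair 1 were set aside, since a label says that the TdTomato+ one failed quality control. The other 46 libraries formed 23 matched pairs, 4 each of P1 heart and 6W muscle and 5 each of P1 lung, P6 muscle and 6W heart.

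ABC transporters use the energy of ATP, bound and split at paired nucleotide-binding domains, to move substrates across membranes. Members of subfamilies B, C and G pump drugs, toxins, conjugates and signalling molecules out of cells, and Abcb1 and Abcg2 are the classic drug efflux pumps of the blood-brain barrier endothelium. Many members of subfamily A, and Abcg1, move lipids, those of subfamily D serve peroxisomes and lysosomes, and those of subfamilies E and F have no membrane span and act on ribosomes. Abcg2, also called breast cancer resistance protein, exports drugs, porphyrins and urate, and its dye efflux marks the side population by which many stem cells are sorted.

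Library totals ran from 17512843 to 27622937 counts. The summed level of 12 endothelial markers was 9842 to 24135 CPM (counts scaled to the TMM-adjusted library total) in every library, so the labelled cell type carried its markers throughout. Groups differed in other ways that touch the results. The RNA integrity number, which is high for intact RNA, had a lower median in TdTomato+ than in TdTomato- libraries of all 5 combinations of tissue and age. P1 lung TdTomato+ libraries 6, 7 and 8 carried 25025, 45407 and 64607 CPM of 12 lung epithelial markers, against 1464 and 2389 CPM in libraries 1 and 5. Among those markers Sftpc reached 51560 CPM and the next, Sftpa1, 7309 CPM, so the highest sum rests largely on Sftpc. Libraries 5 and 6 of 6W heart carry muscle in 1 label field and heart in the others, and their heart muscle marker sums of 225.9 to 438 CPM, against 8.2 to 36.3 CPM in 6W muscle, go with heart. The 6W muscle libraries and 6W heart pairs 5 and 6 were sequenced in a second run. In bulk RNA, fewer cells of a type and less RNA per cell cannot be told apart.

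Compared per length of exon, as RPKM (CPM per kilobase of exon), 23 to 29 of the 41 members reached a group mean of 1 RPKM in any 1 group. Abcg2 had the highest level of any member in 6 of the 10 groups, from 46.5 RPKM in P1 heart TdTomato+ cells to 131 RPKM in 6W muscle TdTomato+ cells. In the other 4 groups, P1 heart, P1 lung and P6 muscle TdTomato- cells and P1 lung TdTomato+ cells, Abcf2 led with 37.8 to 51.2 RPKM. Abcf2 is a soluble ABC protein of the ribosome-associated subfamily F, whose relatives Abcf1 and Abcf3 and the ribosome recycling factor Abce1 were also among the most abundant members, at 19.3 to 36.12 RPKM. In the 6W groups the runner-up was Abcb1a, 1 of the 2 mouse P-glycoproteins, with 34.6 to 49.0 RPKM. At the low end, Abcc6, Abca17, Abcg4 and Abcc8 had no count at all in 3, 4, 2 and 4 groups. With 3 counts as the limit that a count of 0 allows, their levels there were at most 0.0399 CPM over the group.

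**Figure D1:**
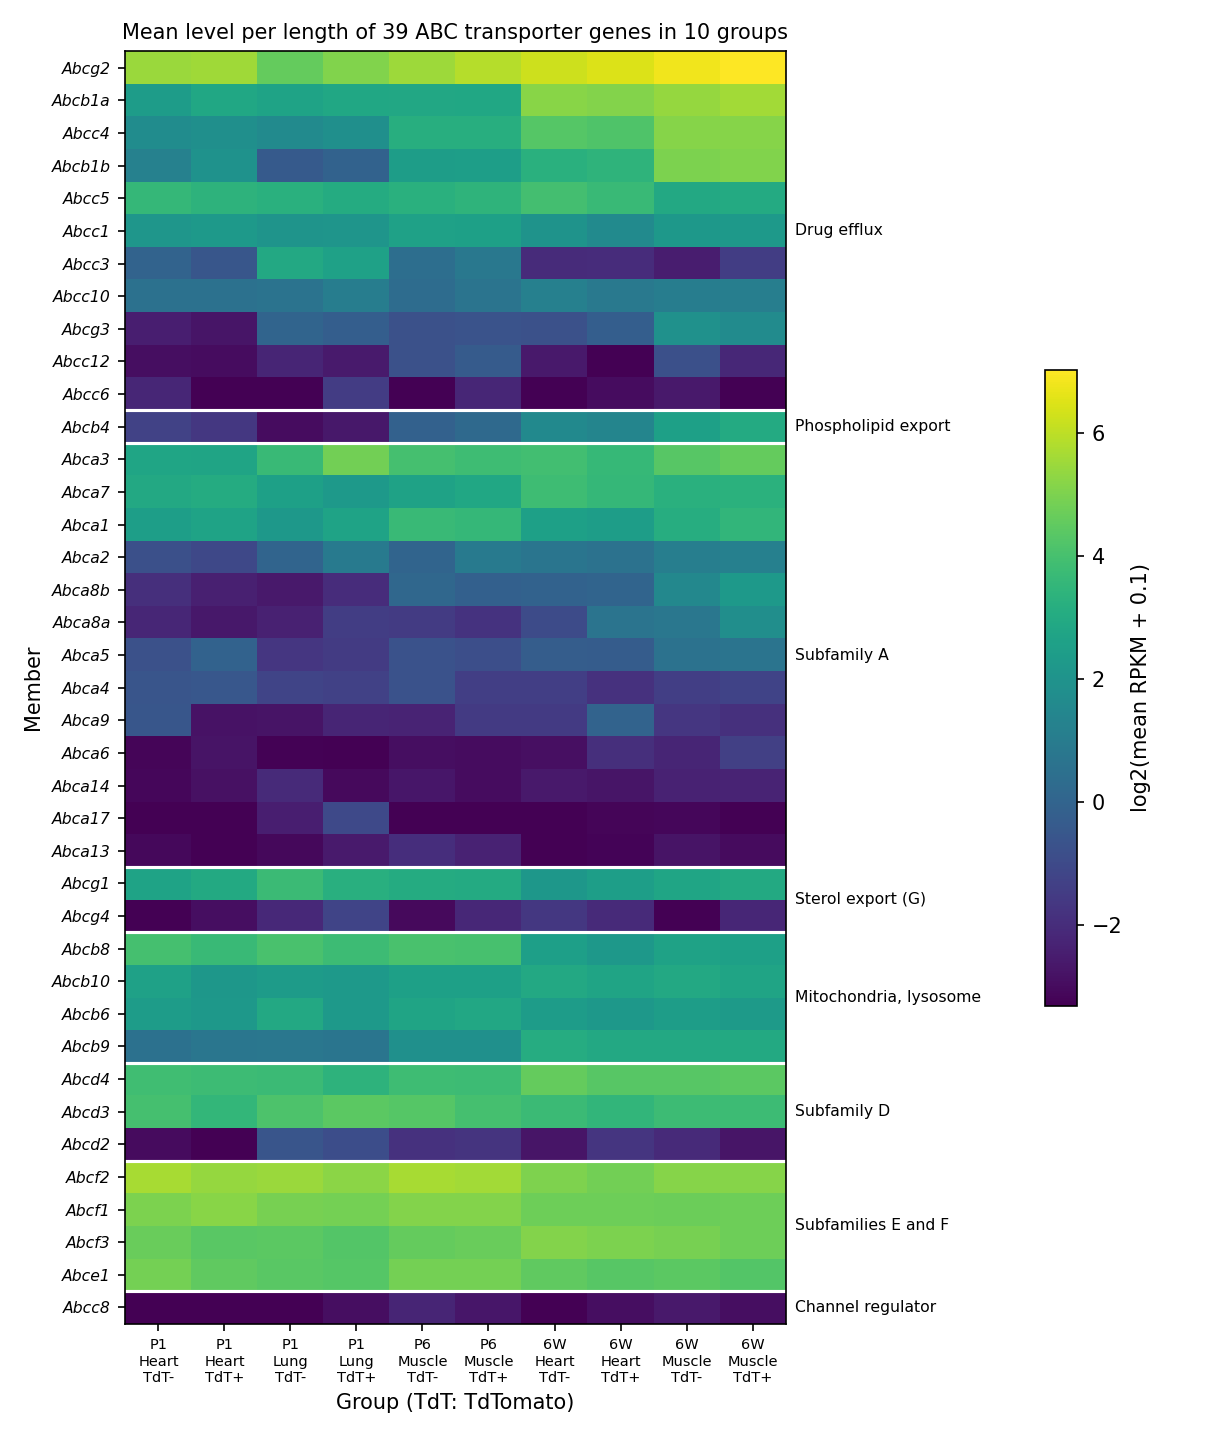
Mean level of 39 of the 41 members (rows, by role) in each of the 10 groups (columns), coloured by log2(mean RPKM + 0.1). Abcg2 and the soluble subfamily E and F members are high in every group, and Abcb1a, Abcb1b and Abcc4 are higher in the 4 groups from 6W.

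Abcg2 is the gene whose locus drives the Cre, so its level is given library by library. The TdTomato sequence was not analysed, and the Cre allele may alter Abcg2, so these levels alone cannot show whether the sort worked. In TdTomato- libraries its level was 118.5, 112.2, 110.8 and 105.3 CPM in P1 heart pairs 2 to 5, and in their TdTomato+ partners 124.1, 122.7, 79.4 and 136.9 CPM. In P1 lung pairs 1, 5, 6, 7 and 8 it was 60.54, 62.73, 62.18, 54.04 and 60.91 CPM in TdTomato- libraries and 91.58, 67.41, 84.8, 82.06 and 92.04 CPM in TdTomato+ libraries. Thus all lung TdTomato+ libraries lay above all lung TdTomato- libraries, whereas the fractions of P1 heart overlapped, with TdTomato+ library 4 the lowest of the 8. That library had the lowest RNA integrity number of all, 3.6, and its part in the Abcg2 level was not tested. In P6 muscle pairs 1 to 5 the levels were 96.32, 115.6, 119.5, 125.5 and 113.3 CPM in TdTomato- and 138.5, 146.2, 161.9, 142.1 and 148.1 CPM in TdTomato+ libraries, again without overlap. In 6W heart pairs 1, 2, 4, 5 and 6 they were 178.7, 175.1, 202, 198.5 and 188.9 CPM against 238.9, 186.2, 215.3, 244.6 and 223.5 CPM. In 6W muscle pairs 2 to 5 they were 241.7, 257.7, 261.1 and 352.4 CPM against 285.7, 324.2, 328.2 and 371.1 CPM. In both 6W tissues every TdTomato+ library was above its own partner but the fractions overlapped.

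As a mean over the 5 combinations of tissue and age, the TdTomato+ level of Abcg2 exceeded the TdTomato- level by 0.27 ± 0.04 on the log2 scale (± SE; edgeR quasi-likelihood test with pairs as a block, Benjamini-Hochberg adjusted p = 2.96e-04), and it was higher in 22 of 23 pairs. Taken singly, it rose in P1 lung by 0.47 ± 0.09 (adjusted p = 0.00132) and in P6 muscle by 0.37 ± 0.09 (adjusted p = 0.0463). The difference was 0.23 ± 0.09 in 6W heart (adjusted p = 0.295), 0.24 ± 0.10 in 6W muscle (adjusted p = 0.195) and 0.03 ± 0.10 in P1 heart (adjusted p = 0.927), none of which passed the threshold of 0.05. The exception among the 23 pairs was P1 heart pair 4, without which the P1 heart difference was 0.19 (adjusted p = 0.267) and the mean of the 5 was 0.30 (adjusted p = 1.60e-05). Without any 1 of the other P1 heart pairs the P1 heart difference was -0.09 to 0.01. The test that the 5 differences are equal gave an adjusted p of 0.146 for Abcg2. The P6 muscle call was lost without any 1 of its 5 pairs and without the replicate block (adjusted p = 0.257). The P1 lung call was lost without pairs 6, 7 and 8 (0.36, adjusted p = 0.358), while the mean of the 5 kept its call there (0.24, adjusted p = 0.00564).

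**Figure D2:**
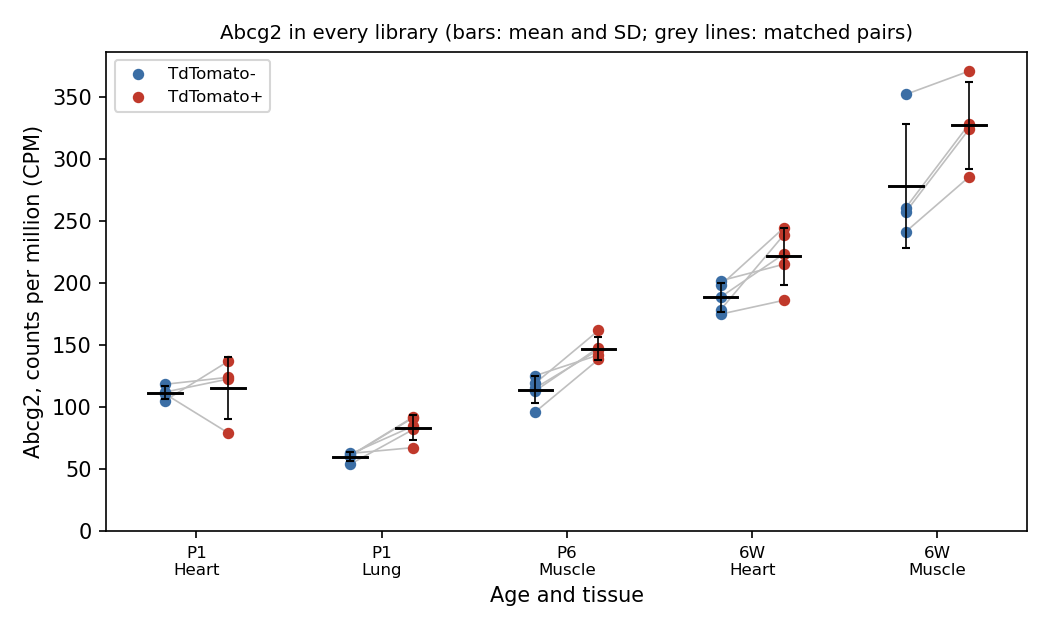
Abcg2 level in CPM in each of the 46 libraries, by tissue, age and fraction, with bars for the mean and SD of a group and grey lines joining matched pairs. The TdTomato+ library is the higher of its pair in 22 of 23 pairs, and levels climb from P1 lung, at 54.04 to 92.04 CPM, to 6W muscle, at 241.7 to 371.1 CPM.

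The order of the 5 tissues and ages was the same in both fractions. In TdTomato- cells, mean Abcg2 was lowest in P1 lung (60.1 ± 3.5 CPM, SD, n = 5), next in P1 heart (112 ± 5.46, n = 4) and P6 muscle (114 ± 10.9, n = 5), then in 6W heart (189 ± 11.8, n = 5), and highest in 6W muscle (278 ± 50.2, n = 4). P1 heart and P6 muscle overlapped, while every other pair of neighbours in that order was separate. In TdTomato+ cells the means were 83.6, 116, 147, 222 and 327 CPM in the same order, and P1 lung and P1 heart were the neighbours that overlapped, through P1 heart library 4.

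Between neonates and 6 weeks more of the drug efflux members rose than fell. Roles were assigned to the members here, and no transport was measured. Of the 11 members given the drug efflux role, 7 were higher and 1 lower at 6W than at P1 in heart TdTomato- cells, in which 10 could be tested. In heart TdTomato+ cells 5 of 11 were higher and 0 lower. In muscle, 6W against P6, 6 of 10 were higher and 2 lower in TdTomato- cells, and 5 of 11 were higher and 1 lower in TdTomato+ cells. The efflux genes higher in all 4 comparisons were Abcg2, Abcb1a, Abcb1b, Abcc4 and Abcg3, and the phospholipid transporter gene Abcb4, next to Abcb1b on the chromosome, was higher in all 4 as well, as were Abca7, Abcb9 and Abcd4 of other roles. Over every role, 22 of the 38 members tested were called in heart TdTomato- cells (17 higher, 5 lower), where 49.3% of all genes tested were called (24% higher, 25.3% lower), and 22 of 39 in heart TdTomato+ cells (17 higher, 5 lower), where 43% were (21.6% higher, 21.4% lower). In muscle the counts were 22 of 38 (14 higher, 8 lower) with 42.5% of all genes called (21% higher, 21.5% lower), and 16 of 39 (11 higher, 5 lower) with 34% (16.3% higher, 17.6% lower). Taken in either direction, the shares of members called were thus not far above the background. By direction, the share called higher was above the background in all 4 comparisons, and the share called lower was below it. The family was not tested as a set, so the counts alone do not set it apart. The median log2 difference of the members tested was 0.65 and 0.61 in heart TdTomato- and TdTomato+ cells and 0.30 and 0.09 in muscle, against medians of -0.01, 0.03, 0.00 and -0.01 over all genes tested. Members that are near 0 in young cells pass the filter on low counts only through their 6W level, so these counts and medians describe the members tested. All P6 muscle libraries were in 1 sequencing run and all 6W muscle libraries in the other, so age and run cannot be told apart in muscle. In heart, the 6W pairs 1, 2 and 4 shared a run with P1, and with those alone 24 and 20 members were called in TdTomato- and TdTomato+ cells.

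Markers of other cell types also differed between the ages. From P1 to 6W heart, summed pericyte and smooth muscle markers went from 11.8 to 38.1 CPM to 315 to 1881 CPM in TdTomato+ libraries, and from 22.09 to 44.53 CPM to 84.6 to 385 CPM in TdTomato- libraries. Endothelial sums went from 10759 to 14550 CPM to 15728 to 18339 CPM in TdTomato+ and from 10543 to 11959 CPM to 18392 to 20869 CPM in TdTomato- libraries. In TdTomato- heart libraries the fibroblast sums were 635 to 1024 CPM at P1 and 209 to 370 CPM at 6W, without overlap. In TdTomato+ heart libraries they went the other way, from 67.6 to 429 CPM at P1 to 375 to 1379 CPM at 6W, with overlap. In muscle the fibroblast sums were lower at 6W in both fractions, at 85.5 to 467 CPM against 706 to 1967 CPM at P6. The part of these sums in the changes with age was not tested.

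Abcb1a encodes a P-glycoprotein, the drug efflux pump of barrier endothelium. In TdTomato- cells its level was 25.44, 23.79, 26.13 and 27.92 CPM in P1 heart and 176.9, 190.2, 204.3, 177.9 and 173.9 CPM in 6W heart. In P6 muscle it was 39.97, 38.11, 36.48, 31.65 and 34.91 CPM, and in 6W muscle 150.4, 209.4, 185.3 and 289 CPM. Every 6W library was above every neonatal one, by 2.84 ± 0.14 in heart (7.15-fold, adjusted p = 2.91e-13) and 2.53 ± 0.13 in muscle (5.76-fold, adjusted p = 1.65e-12) on the log2 scale. In TdTomato+ cells the rises were 2.27 ± 0.17 in heart (adjusted p = 5.75e-10) and 2.79 ± 0.16 in muscle (adjusted p = 3.66e-11). These calls held under every alternative run.

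Abcb1b, the second mouse P-glycoprotein gene, was at 10.57, 7.73, 10.5 and 10.56 CPM in P1 heart and 36.94, 47.13, 28.93, 34.76 and 58.34 CPM in 6W heart TdTomato- libraries. It was at 27.28, 26.05, 23.37, 22.08 and 18.31 CPM in P6 muscle and 119.8, 152.6, 119.9 and 154.7 CPM in 6W muscle. Neither tissue showed overlap between ages, and the rises were 2.07 ± 0.35 in heart (adjusted p = 3.66e-05) and 2.55 ± 0.34 in muscle (adjusted p = 1.76e-06). Abcb4, whose product moves phosphatidylcholine into bile in the liver, was at 1.433, 0.1508, 1.172 and 2.268 CPM in P1 heart and 11.61, 11.29, 9.817, 12.44 and 15.09 CPM in 6W heart, a rise of 3.26 ± 0.61 (adjusted p = 1.14e-04). In muscle it was at 2.65 to 3.89 CPM at P6 and 19.6 to 26.2 CPM at 6W, a rise of 2.84 ± 0.56 (adjusted p = 2.38e-04). Abcb1a (chr5:8660092-8748570), Abcb1b (chr5:8798147-8866314) and Abcb4 (chr5:8893721-8959226) stand in a row on the plus strand of mouse build mm10, 49576 and 27406 bases apart with no listed gene between. The 3 share sequence, since 16.98% of the 50-base windows of the Abcb1a transcript and 18.3% of those of Abcb1b occur in another member, against 3.42% for Abcb4. The sources used here do not say how such reads were counted, so the split of reads between Abcb1a and Abcb1b is uncertain.

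Abcc4, or MRP4, exports cyclic nucleotides, prostaglandins and drug conjugates. It was at 15.68, 24.85, 17.97 and 16.58 CPM in P1 heart and 101.9, 91.68, 130.3, 117.8 and 138 CPM in 6W heart TdTomato- libraries. In muscle it was at 66.69, 54.27, 37.32, 51.23 and 55.77 CPM at P6 and 145.6, 262.9, 168.2 and 261 CPM at 6W. No library overlapped with the other age in either tissue, and the rises were 2.63 ± 0.20 in heart (adjusted p = 2.39e-10) and 1.98 ± 0.18 in muscle (adjusted p = 1.11e-08). Abcg2 itself rose by less, 0.76 ± 0.10 in heart (1.69-fold, adjusted p = 9.05e-07) and 1.29 ± 0.10 in muscle (2.44-fold, adjusted p = 3.79e-10) in TdTomato- cells, and by 0.94 ± 0.13 (adjusted p = 5.54e-06) and 1.15 ± 0.13 (adjusted p = 4.67e-07) in TdTomato+ cells. Abcg3, a rodent relative of Abcg2, rose by 2.50 ± 0.77 in heart (adjusted p = 0.00936) and 2.91 ± 0.68 in muscle (adjusted p = 0.00134) from levels of 0 to 1.78 CPM, and its heart libraries overlapped between the ages.

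**Figure D3:**
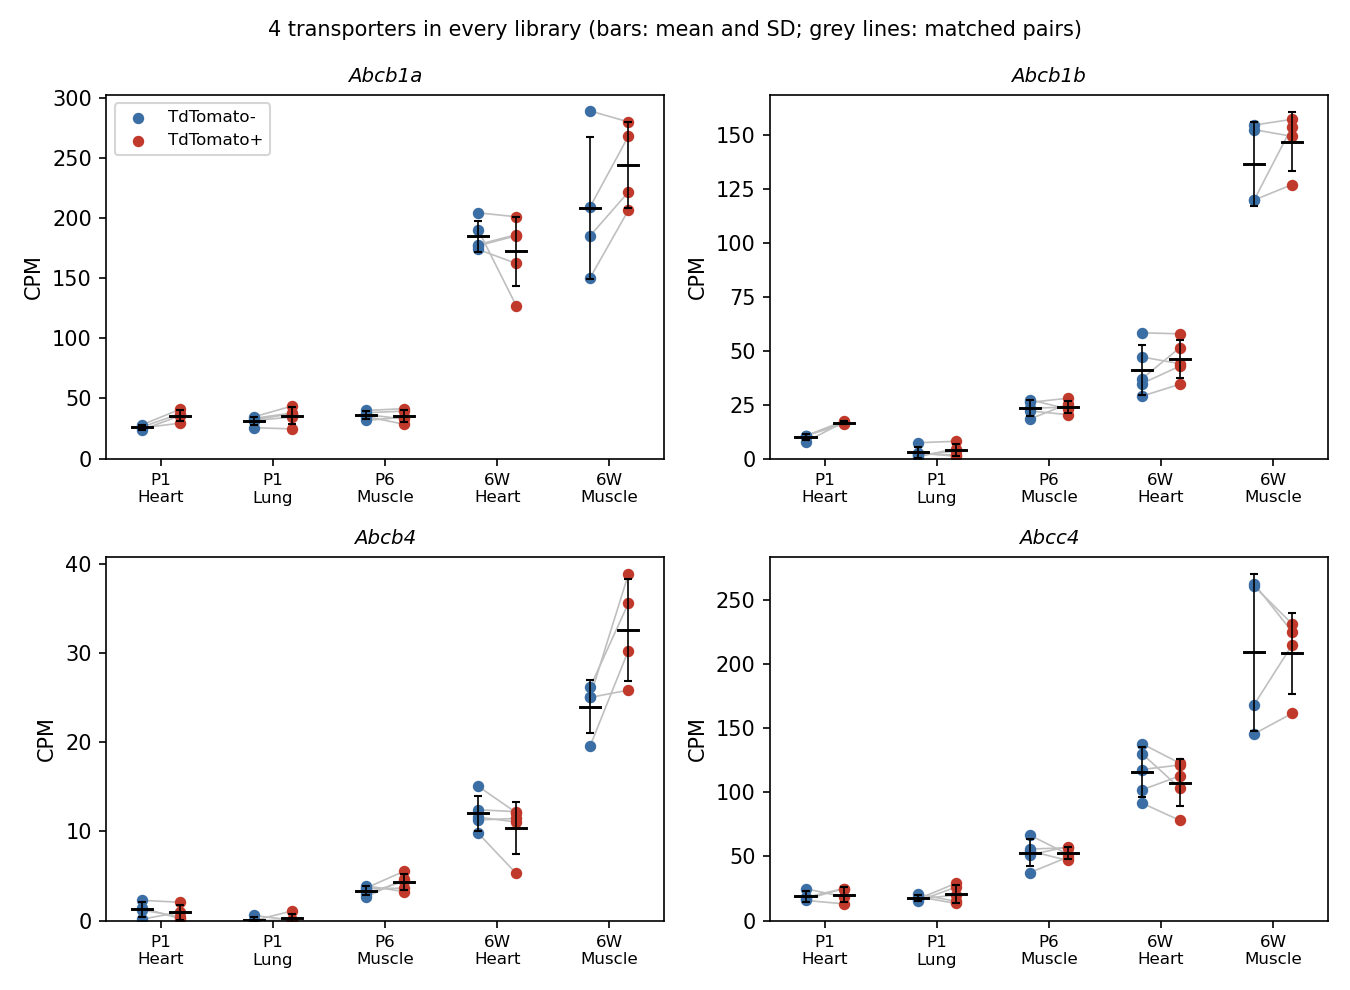
Levels in CPM of the efflux pump genes Abcb1a, Abcb1b and Abcc4 and of Abcb4 in each library, by tissue, age and fraction, with bars for the mean and SD and grey lines joining matched pairs. The 6W libraries of heart and muscle lie above the neonatal libraries of the same tissue for all 4 genes.

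The 250 bases before the start of the deposited gene model are shown for the drug efflux members that rose in all 4 age comparisons, other than Abcg3, and for Abcb4, from RefSeq sequence of build GRCm38.p6 (mm10), 5′ to 3′ on the gene's own strand. Of 5 such genes, 4 had a RefSeq start at the same base, and Abcb1a did not. Capitals mark matches, on either strand, to any of 5 motifs. The TATA box was searched as TATAAA. The box bound by NF-Y was searched as CCAAT. The GC box was searched as GGGCGG. The core of the xenobiotic response element was searched as GCGTG. The core of the hypoxia response element was searched as ACGTG. The windows are chr6:58596422-58596671 on the plus strand for Abcg2, chr5:8797897-8798146 on the plus strand for Abcb1b, chr5:8893471-8893720 on the plus strand for Abcb4, and chr14:118706220-118706469 on the minus strand for Abcc4.
Abcg2: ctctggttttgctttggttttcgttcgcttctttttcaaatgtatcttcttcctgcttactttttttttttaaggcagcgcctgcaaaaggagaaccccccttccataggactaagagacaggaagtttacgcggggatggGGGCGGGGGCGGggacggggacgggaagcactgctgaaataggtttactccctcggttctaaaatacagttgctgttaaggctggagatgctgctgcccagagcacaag
Abcb1b: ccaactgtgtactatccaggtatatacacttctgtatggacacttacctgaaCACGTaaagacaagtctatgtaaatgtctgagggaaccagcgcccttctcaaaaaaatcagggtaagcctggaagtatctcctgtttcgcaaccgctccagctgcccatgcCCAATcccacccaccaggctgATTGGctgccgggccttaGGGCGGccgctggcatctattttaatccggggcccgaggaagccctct
Abcb4: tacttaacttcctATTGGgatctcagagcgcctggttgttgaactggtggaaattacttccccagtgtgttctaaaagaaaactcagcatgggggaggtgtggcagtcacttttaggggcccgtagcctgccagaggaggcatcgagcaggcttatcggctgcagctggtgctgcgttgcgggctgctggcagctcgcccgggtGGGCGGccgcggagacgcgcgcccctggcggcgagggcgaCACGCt
Abcc4: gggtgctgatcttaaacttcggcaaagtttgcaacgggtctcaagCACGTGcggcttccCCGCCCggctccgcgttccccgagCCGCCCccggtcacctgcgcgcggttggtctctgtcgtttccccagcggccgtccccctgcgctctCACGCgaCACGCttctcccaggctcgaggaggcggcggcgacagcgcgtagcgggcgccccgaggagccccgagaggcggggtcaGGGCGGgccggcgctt

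All 4 windows held a GC box, 2 of them in a row in Abcg2 at 109 to 98 bases before the start, 1 each in Abcb1b and Abcb4, and 3 in Abcc4. Of 32851 RefSeq windows of the same length, 32.7% hold a GC box. A CCAAT box stood in Abcb1b (2 matches) and Abcb4 (1), as in 33.8% of windows. The letters GCGTG stood in Abcb4 and Abcc4 (28.2% of windows) and ACGTG in Abcb1b and Abcc4 (16.6%), where the 2 ACGTG matches of Abcc4, on opposite strands, lie 205 to 201 and 204 to 200 bases before the start and so overlap. None of the 4 held TATAAA, found in 12.4% of windows. The G and C content was 50.0% in Abcg2, 52.8% in Abcb1b, 61.6% in Abcb4 and 72.0% in Abcc4. These matches are letters in a window and were not tested for binding.

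Of the drug efflux members, Abcc3, Abcc1 and Abcc6 fell in at least 1 of the age comparisons. Abcc3, or MRP3, which exports bile salts and glucuronides, was at 4.724, 3.657, 4.21 and 5.161 CPM in P1 heart and 1.942, 0, 0.4593, 1.104 and 0 CPM in 6W heart TdTomato- libraries, which did not overlap. It fell by 2.63 ± 0.73 in heart (adjusted p = 0.00456) and by 4.01 ± 0.84 in muscle (adjusted p = 4.84e-04) in that fraction. Abcc1, or MRP1, fell by 0.41 ± 0.14 in muscle TdTomato- cells (adjusted p = 0.0255), from 32.4 to 39.4 CPM at P6 to 22.5 to 29.9 CPM at 6W. Abcc6, linked to the control of mineralization, was at 1.691, 0.7568, 0, 0.4789 and 0 CPM in P6 and at 0 in all 6W muscle TdTomato+ libraries (adjusted p = 0.0461), at least 14.7-fold lower against 3 counts over the group. Only 3 of the 5 P6 libraries thus held counts of Abcc6, and 4 of 13 alternatives kept this call.

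Among members of mitochondria and lysosomes, Abcb9 and Abcb8 moved in opposite directions. Abcb9, a lysosomal peptide transporter, was at 3.175, 2.828, 5.99 and 6.256 CPM in P1 heart and 32.09, 25.72, 26.18, 30.34 and 24.5 CPM in 6W heart TdTomato- libraries, a rise of 2.61 ± 0.29 (adjusted p = 9.14e-08). Abcb8, of the mitochondrial inner membrane, was at 48.52, 47.21, 42.5 and 47.39 CPM in P1 heart and 11.05, 20.68, 18.71, 11.39 and 20.6 CPM in 6W heart. All 6W libraries were thus below all P1 libraries for Abcb8 and above them for Abcb9. Abcb8 fell by 1.49 ± 0.21 in heart (adjusted p = 3.31e-06) and by 1.43 ± 0.22 in muscle (adjusted p = 1.30e-05), and Abcb9 rose by 1.07 ± 0.26 in muscle (adjusted p = 0.00222). Both had the same direction and passed the test in TdTomato+ cells of both tissues. Abcb6 and Abcb10 of the same role passed in none of the 4 age comparisons.

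The lipid transporters of subfamily A held 13 members, of which 11 could be tested. In heart TdTomato- cells 4 rose (Abca2, Abca3, Abca7 and Abca8b) and 1 fell (Abca13), where 24% of all genes were called higher and 25.3% lower. In heart TdTomato+ cells Abca8a and Abca9 rose besides these 4, and 1 fell (Abca4), where 21.6% of all genes were called higher and 21.4% lower. Abca8a was at 0, 0, 0 and 1.313 CPM in P1 heart and at 9.422, 14.11, 7.755, 4.351 and 5.633 CPM in 6W heart TdTomato+ libraries, without overlap (4.59 ± 1.53, adjusted p = 0.0185), and its call was lost without P1 library 2 or 3 (adjusted p = 0.0508 and 0.0504). In muscle TdTomato+ cells Abca8a went from 0 to 2.23 CPM at P6 to 8.88 to 22.2 CPM at 6W (4.17 ± 1.35, adjusted p = 0.0200). Abca9 was at 0, 0, 0.4035 and 0.6157 CPM in P1 heart and at 3.75, 12.08, 8.693, 1.487 and 1.65 CPM in 6W heart TdTomato+ libraries (4.40 ± 1.4, adjusted p = 0.0143). For Abca8a and Abca9, little or nothing was thus counted in the neonatal TdTomato+ libraries of heart. Abca4 fell there by 1.78 ± 0.67 (adjusted p = 0.0344), with overlap between the ages, and its call was lost in 6 of 14 alternatives. Abca3, which loads surfactant lipid in the lung, rose by 1.15 ± 0.22 in heart TdTomato- cells (adjusted p = 1.39e-04), and Abca7, a phospholipid exporter, by 0.90 ± 0.18 (adjusted p = 2.15e-04). In muscle TdTomato- cells Abca5, Abca7, Abca8a (a call kept in 5 of 13 alternatives) and Abca8b rose, and Abca1, the cholesterol efflux pump that loads apolipoprotein A-I, fell by 0.58 ± 0.22 (adjusted p = 0.0373). Summed skeletal muscle markers were 390 to 806 CPM in P6 muscle and 38.8 to 244 CPM in 6W muscle libraries, and their part in these values was not tested. Abca8b, Abca8a, Abca9, Abca6 and Abca5 lie in a row on chromosome 11, in which gaps ran from 4884 to 29817 bases. Abcg1, which passes cholesterol to high-density lipoprotein, fell in heart by 0.52 ± 0.12 in TdTomato- (adjusted p = 8.76e-04) and by 0.49 ± 0.17 in TdTomato+ cells (adjusted p = 0.0233).

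In subfamily D, Abcd2, a peroxisomal transporter, had 1 count over the P1 heart and 117 counts over the 6W heart TdTomato+ libraries (adjusted p = 0.00492), although 6W library 1 also held 0. Abcd4, which exports vitamin B12 from lysosomes, rose in all 4 age comparisons, by 0.74 ± 0.16 in heart TdTomato- cells (adjusted p = 5.50e-04). Abcd3, also of peroxisomes, fell in muscle TdTomato- cells by 0.51 ± 0.16 (adjusted p = 0.0135). Of the 4 soluble members, Abcf2 fell in all 4 comparisons, by 0.65 ± 0.10 in heart TdTomato- cells (adjusted p = 9.31e-06), from 104.7 to 148.1 CPM at P1 to 79.74 to 93.42 CPM at 6W, without overlap. Abce1 and Abcf1 fell in both fractions of muscle, and Abcf3 rose in 3 of the 4 comparisons, by 0.45 ± 0.10 in heart TdTomato- cells (adjusted p = 4.53e-04). Abcg4 had 0 counts in P1 heart TdTomato- libraries and 75 counts in those of 6W heart, at least 26.7-fold higher against 3 counts over the group, but 2 of the 5 6W libraries also held 0.

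Lung and heart endothelium were compared at P1. Of the members, 14 of 38 were called in TdTomato- cells (8 higher in lung, 6 lower) and 13 of 39 in TdTomato+ cells (7 higher, 6 lower), against 36.9% of all genes tested (20% higher, 17% lower) and 34.5% (15.4% lower). The members' median difference was -0.09 and 0.08, against -0.02 and 0.01 over all genes. Abcg2 was lower in lung by 0.89 ± 0.10 in TdTomato- (adjusted p = 1.05e-07) and by 0.47 ± 0.13 in TdTomato+ cells (adjusted p = 0.00814), with overlap in the latter. Abcb1b was lower by 1.77 ± 0.36 (adjusted p = 4.30e-04) and 2.15 ± 0.33 (adjusted p = 2.91e-05). Its lung TdTomato- levels were 7.307, 2.149, 0.7285, 1.552 and 2.658 CPM, all below the 7.73 to 10.57 CPM of heart. Abcb4 was at 0 in 4 of 5 lung TdTomato- libraries. Abcc3 was 8.51-fold higher in lung TdTomato- cells, at 24.44, 39.76, 39.81, 24.84 and 60.21 CPM (log2 difference 3.09 ± 0.71, adjusted p = 0.0014). Abcg1 was 2.09-fold higher there, at 68.93 to 87.8 CPM against 35.12 to 38.75 CPM in heart (1.06 ± 0.12, adjusted p = 2.44e-07). Markers of other cells were higher in every lung than in every heart TdTomato- library, with sums of 1941 to 8208 against 3.14 to 11.3 CPM for lung epithelium, 1429 to 3191 against 210 to 371 CPM for lymphatic endothelium and 96.7 to 556 against 7.64 to 15.08 CPM for leukocytes. The part of these sums in the differences was not tested. Within the leukocyte list Lyz2 reached 3367 CPM over all libraries, and no other marker passed 109.7 CPM. Within the lymphatic list Lyve1 reached 2554 CPM, no other marker passed 315.9 CPM, and Prox1 reached at most 53.14 CPM. These sums alone thus do not show how many leukocytes or lymphatic cells were present. The run sheets give heart and lung different batch numbers, so tissue and batch cannot be told apart here. Without P1 lung pairs 6, 7 and 8, the members called were 8 in TdTomato- and 9 in TdTomato+ cells, and Abcg2, Abcb1b, Abcc3 and Abcg1 kept their TdTomato- calls.

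Heart and muscle endothelium were compared at 6W. Of the members, 10 of 38 were called in TdTomato- cells (2 higher in heart, 8 lower) and 10 of 39 in TdTomato+ cells (1 higher, 9 lower), against 21.9% of all genes tested (10.5% higher, 11.4% lower) and 15% (7.47% higher, 7.58% lower). The members' median was -0.20 and -0.50, against -0.01 and 0.00 over all genes. Abcb1b was 3.32-fold lower in heart TdTomato- cells (-1.73 ± 0.33, adjusted p = 5.04e-04), Abcc4 1.81-fold lower (-0.85 ± 0.18, adjusted p = 0.00148) and Abcg2 1.48-fold lower (-0.56 ± 0.10, adjusted p = 1.73e-04), in each case without overlap. Abcc5, or MRP5, an exporter of cyclic nucleotides, was the only drug efflux member higher in heart in either fraction, at 90.4, 86.32, 92.37, 93.18 and 117.8 CPM against 43.68, 49.1, 41.71 and 54.49 CPM in TdTomato- libraries (1.02 ± 0.14, adjusted p = 8.03e-06). The lipid efflux pump gene Abca1 was 2.09-fold lower in heart TdTomato+ cells (adjusted p = 5.77e-04). All muscle libraries and heart pairs 5 and 6 were in the second run. With that run alone, 4 members were called in TdTomato- and 1 in TdTomato+ cells. There Abcg2 and Abcc5 kept their TdTomato- calls (-0.51, adjusted p = 0.0140, and 1.17, adjusted p = 1.17e-04), Abcb1b kept its own (-1.55, adjusted p = 0.0336), and Abcc4 did not (-0.70, adjusted p = 0.0617). Summed pericyte and smooth muscle markers were 315 to 1881 CPM in heart and 165 to 350 CPM in muscle TdTomato+ libraries. In TdTomato- libraries they were 84.6 to 385 CPM in heart and 194 to 387 CPM in muscle. The tissues overlapped in both fractions, and the part of these sums in the differences was not tested.

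Beside Abcg2, 10 members were called in at least 1 comparison of fractions. In P1 lung, 6 of 41 members were called by edgeR (4 higher in TdTomato+, 2 lower), with 9.78% of all genes called (4.88% higher, 4.9% lower). Abca3 was at 65.29, 73.44, 72.85, 81.68 and 127.4 CPM in TdTomato- libraries 1, 5, 6, 7 and 8, and at 74.36, 88.38, 144.7, 254.6 and 362.2 CPM in their partners. It was higher in all 5 TdTomato+ libraries, by 0.92 ± 0.17 (adjusted p = 9.36e-04), and the fractions overlapped. The 3 highest were those with lung epithelial marker sums of 25025 to 64607 CPM. Abca3 is known from surfactant-making epithelial cells, and the part of such cells in its difference was not tested. Its exons overlap those of D330041H03Rik on the other strand over 691 bases (10.67% of its exon length), and reads there cannot be told apart without strand. In the TdTomato- partners the sums were 3035, 8208 and 7714 CPM. Without pairs 6, 7 and 8 the Abca3 difference was 0.24 (adjusted p = 0.754), and 0 of the 6 calls held there. That fit kept only pairs 1 and 5 of P1 lung, so it does not set Abca3 apart from the other calls.

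Abcg1 was at 75.71, 80.79, 87.8, 71.51 and 68.93 CPM in P1 lung TdTomato- libraries and at 72.13, 57.66, 56.19, 39.77 and 42.98 CPM in TdTomato+ libraries. It was lower in all 5 TdTomato+ libraries, by 0.55 ± 0.09 (adjusted p = 2.88e-04), although library 1 overlapped the other fraction. Endothelial marker sums were also lower in that fraction, 9842 to 14638 CPM against 15148 to 17129 CPM, and their part in the difference was not tested. Abca1 went up, from 77.39, 45.09, 33.12, 38.05 and 39.56 CPM to 99.54, 53.58, 43.47, 71.27 and 61.42 CPM, by 0.51 ± 0.13 (adjusted p = 0.00931), and its call was lost without pair 7 (adjusted p = 0.0788). Leukocyte marker sums were 103 to 3464 CPM in TdTomato+ and 96.7 to 556 CPM in TdTomato- lung libraries. Within that list Lyz2 reached 3367 CPM over all libraries, and no other marker passed 109.7 CPM, so the sum rests largely on Lyz2. The sum alone thus does not show how many leukocytes were present, and its part in the Abca1 difference was not tested. Abcb6, a porphyrin transporter, fell by 0.69 ± 0.22 (adjusted p = 0.0486), lower in 4 of 5 pairs. Abcc6 had 55, 0, 44, 20 and 33 counts in TdTomato+ and 0, 0, 1, 0 and 0 counts in TdTomato- lung libraries (adjusted p = 0.0324), and its call was lost without pair 1, 6, 7 or 8. The Abcb6 call was lost without pair 5, 6 or 8.

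**Figure D4:**
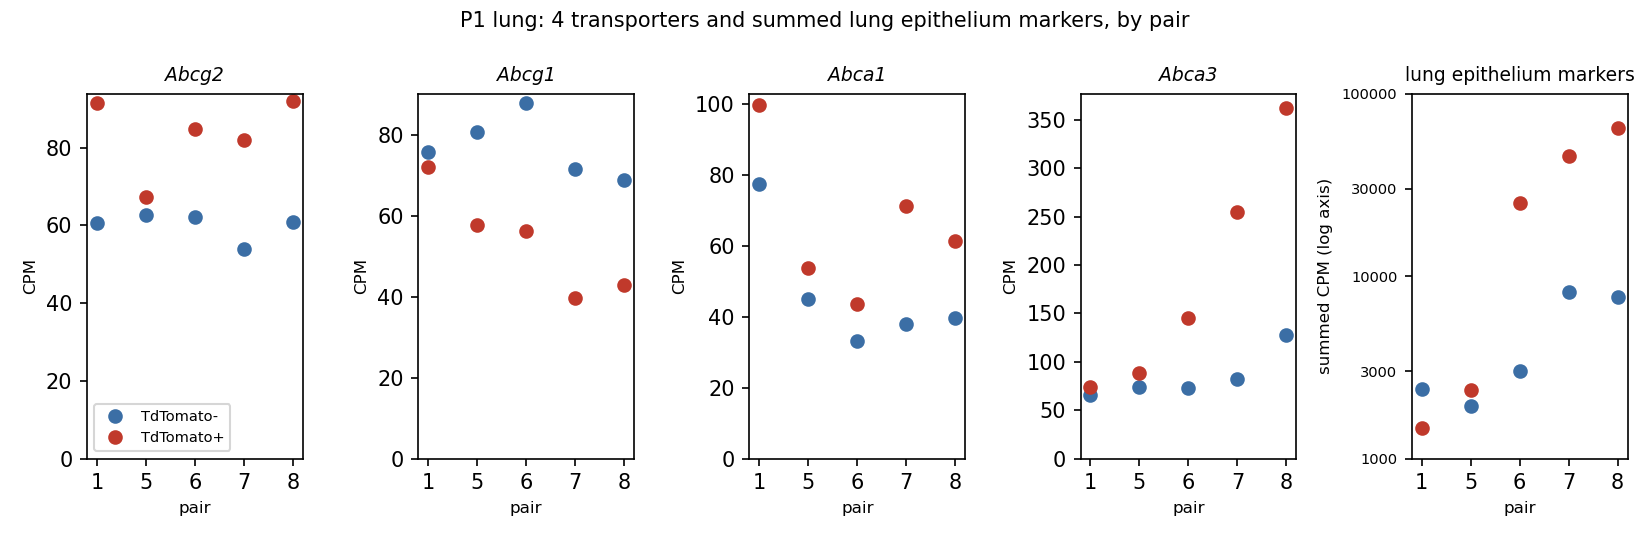
Levels in CPM of Abcg2, Abcg1, Abca1 and Abca3 in the P1 lung libraries, by pair and fraction, beside the summed CPM of the lung epithelial markers on a log axis. Abca3 and the marker sum are highest in TdTomato+ libraries 6, 7 and 8.

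In P1 heart, 4 of 41 members were called by edgeR (2 higher, 2 lower), with 14.7% of all genes called (7.51% higher, 7.21% lower). Abcb1a was at 25.44, 23.79, 26.13 and 27.92 CPM in TdTomato- libraries 2 to 5 and at 29.37, 35.52, 37.26 and 40.88 CPM in TdTomato+ libraries, higher in 4 of 4 pairs and without overlap (0.46 ± 0.10, adjusted p = 0.00427). Abcb1b was at 10.57, 7.73, 10.5 and 10.56 CPM against 16, 16.83, 17.35 and 16.58 CPM, also without overlap (0.77 ± 0.26, adjusted p = 0.0484). Both P-glycoprotein genes were thus higher in the TdTomato+ fraction of neonatal heart, in the fit of all 23 pairs, with the shared sequence described above as a limit. Fitted on P1 heart alone, with the pairs as a block, 0 of the 4 members was called (0.46, adjusted p = 0.125 for Abcb1a, and 0.77, adjusted p = 0.0923 for Abcb1b). Abcd3 was at 51.93, 54.14, 49.83 and 59.98 CPM against 29.76, 27.8, 42.46 and 57.26 CPM, lower in 4 of 4 pairs with overlap (-0.51 ± 0.14, adjusted p = 0.0136). Abcb10, a mitochondrial transporter needed for heme synthesis, was lower in 3 of 4 pairs (-0.61 ± 0.18, adjusted p = 0.0263). The RNA integrity number was 3.6 to 8.5 in TdTomato+ and 8 to 9.2 in TdTomato- libraries of P1 heart. Marker sums were 67.6 to 429 against 635 to 1024 CPM for fibroblasts and 164 to 282 against 725 to 1232 CPM for the endocardial list. That list also summed to 2172.5 to 3709 CPM in P1 lung TdTomato+ libraries, so it is not specific to endocardium. Within it Plvap reached 3367 CPM over all libraries, and no other marker passed 227.1 CPM. The part of RNA integrity and of these sums in the 4 differences was not tested. Without the replicate block 0 of the 4 was called, with an adjusted p of 0.0569 for Abcb1a. The Abcb1b call was lost without any 1 pair, that of Abcd3 without pair 2 or 3, and that of Abcb10 without pair 2, 3 or 4, whereas that of Abcb1a held without each single pair. DESeq2 called 7 members there, with Abcg1 higher and Abca9 and Abcf2 lower beside these 4.

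The Abcb1a difference changed with age in heart. At 6W it was -0.11 ± 0.09 (adjusted p = 0.701), and the change from P1 was -0.58 ± 0.14 (adjusted p = 0.00944), the only member that edgeR called for a change of the fraction difference in heart, where 8.05% of all genes were called (4.26% higher, 3.79% lower). DESeq2 called Abca8a (5.22, adjusted p = 0.0191) and Abca9 (6.63, adjusted p = 0.00121) for that change as well. In P1 heart, fibroblast marker sums were 67.6 to 429 CPM in TdTomato+ and 635 to 1024 CPM in TdTomato- libraries. In 6W heart they were 375 to 1379 and 209 to 370 CPM. Pericyte and smooth muscle sums in 6W heart were 315 to 1881 and 84.6 to 385 CPM. The part of these sums in the changes of Abca8a and Abca9 was not tested. In muscle no member was called by edgeR or DESeq2 for such a change, with 1.57% of all genes called (1.12% lower) and 3 members at an unadjusted p under 0.05. In P6 muscle Abcg2 was the only member called by edgeR in the fit of all pairs and by DESeq2, with 0.977% of all genes called (0.624% higher). Fitted on P6 muscle alone, Abcd3 was called too (-0.30, adjusted p = 0.0453). In 6W heart 0 of 41 members were called by edgeR, with 0.874% of all genes called (0.598% higher) and 5 members at an unadjusted p under 0.05, while DESeq2 called Abcg1 (0.32, adjusted p = 0.0280). In 6W muscle 0 of 41 were called by edgeR and by DESeq2, with 5.23% of all genes called (1.7% higher) and 5 members at an unadjusted p under 0.05. Fitted on 6W muscle alone, Abca1 (0.37), Abca8a (1.08) and Abca8b (0.71) were higher in TdTomato+ cells (adjusted p = 0.0427, 0.0200 and 0.00930). The members' median difference was -0.07 in P1 heart, -0.05 in P1 lung, 0.00 in P6 muscle, -0.15 in 6W heart and 0.05 in 6W muscle, against -0.04, 0.00, 0.00, -0.02 and 0.01 over all genes.

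Over the mean of the 5 combinations, 3 of 41 members were called (2 higher, 1 lower), with 8.39% of all genes called (4.4% higher, 3.99% lower). Beside Abcg2 these were Abcb1a, higher by 0.15 ± 0.04 (adjusted p = 0.0366, 16 of 23 pairs), and Abcf2, lower by 0.16 ± 0.04 (adjusted p = 0.0203, 18 of 23 pairs). The Abcb1a call was kept in 12 of 30 alternatives, among them DESeq2, and lost in 18, among them the fit without the replicate block (adjusted p = 0.214), while that of Abcf2 was kept in 27 of 30. DESeq2 also called Abca1, Abcb1b (both higher) and Abcb10 (lower) for the mean. The 5 differences were unequal for 6 of 41 members, with 16.8% of all genes called, and these were Abcg1, Abca3, Abcb1a, Abca1, Abcd3 and Abcc6. Abcg1 was lower in TdTomato+ cells of P1 lung and higher in all pairs of P1 heart, 6W heart and 6W muscle, by 0.28 ± 0.10, 0.30 ± 0.09 and 0.22 ± 0.10, none of which passed the edgeR test singly. DESeq2 called it in P1 heart (0.28, adjusted p = 0.0279), beside its 6W heart call given above.

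**Figure D5:**
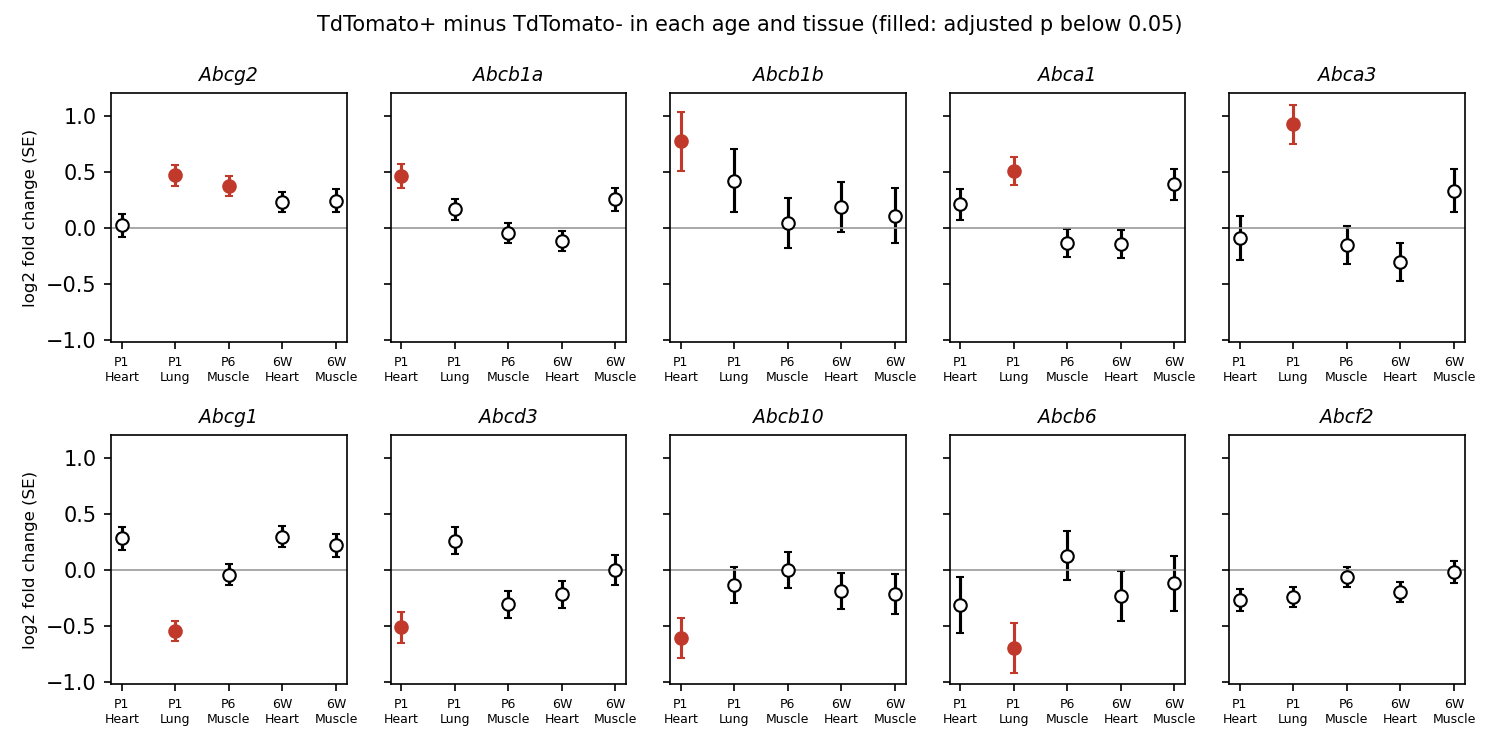
Log2 difference between TdTomato+ and TdTomato- cells with its SE for 10 of the 11 members called in any comparison of fractions (Abcc6, with few counts, is not drawn), in each of the 5 combinations of tissue and age, with filled points for adjusted p below 0.05. Abcg2 is above 0 in all 5, from 0.03 in P1 heart to 0.47 in P1 lung, while Abcg1 is at -0.55 in P1 lung and above 0 in 3 others.

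The genes whose log2 CPM followed Abcg2 most closely over the 46 libraries were Stim1 (Pearson r = 0.958), which senses calcium stores, Timp4 (0.941), an inhibitor of metalloproteinases, Sult1a1 (0.935), a sulfotransferase of drug metabolism, Gatsl3 (0.933) and Ssh2 (0.930), a phosphatase of the actin regulator cofilin. Among members the closest were Abcb1b (0.918), Abcb4 (0.907), Abcc4 (0.903) and Abcb1a (0.854). These values describe the spread between tissues and ages, since the libraries of a group share their tissue, age and often their run. Taken within groups, as deviations from the group mean, r was 0.424 for Stim1, 0.070 for Abcb1b and 0.257 for Abcb1a. Timp4 ran from 4.21 CPM in P1 lung TdTomato- cells to 3633 CPM in 6W muscle TdTomato- cells, and Sult1a1 from 32.8 to 1389 CPM between the same groups.

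Genes that work with the transporters were read from 8 lists. In heart TdTomato- cells at 6W against P1, the enzymes of drug metabolism had 11 of 20 members higher and 3 lower, led by Ephx1, an epoxide hydrolase (3.40 ± 0.14, adjusted p = 1.99e-14), and Gstm1, a glutathione transferase (2.86 ± 0.15, adjusted p = 5.49e-13). Nuclear receptors and stress regulators had 15 of 21 tested higher and 1 lower, among them Epas1, the hypoxia factor abundant in endothelium (1.87 ± 0.12, adjusted p = 9.53e-12), and Nfe2l2, the oxidative stress regulator (1.22 ± 0.09, adjusted p = 2.56e-10). Ribosome recycling and initiation factors had 0 of 15 higher and 10 lower, as with Gspt1, a termination factor (-0.91 ± 0.10, adjusted p = 8.66e-08). Uptake carriers had 4 of 19 higher and 6 lower, genes of cholesterol efflux 8 of 17 higher and 3 lower, heme and iron genes 3 of 21 higher and 5 lower, and peroxisome genes 6 of 20 higher and 1 lower. Tap1 and Tap2, the peptide transporters of antigen presentation that are ABC proteins under other symbols, both rose, by 1.72 ± 0.42 (adjusted p = 0.0016) and 2.12 ± 0.21 (adjusted p = 2.00e-08). Of all genes tested, 24% were called higher and 25.3% lower in that comparison.

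In muscle TdTomato- cells at 6W against P6, the same lists gave 13 of 20 drug metabolism genes higher and 1 lower, 10 of 21 regulators higher and 1 lower, and 0 of 15 ribosome factors higher and 9 lower, against 21% and 21.5% of all genes. Ephx1 rose by 2.85 ± 0.13 (adjusted p = 1.68e-13) and Slc3a2, the heavy chain of amino acid carriers, by 2.07 ± 0.12 (adjusted p = 1.32e-11). Tap1 and Tap2 rose there too, by 2.36 ± 0.41 and 2.02 ± 0.20 (adjusted p = 6.02e-05 and 3.44e-08). Between the fractions, 1 of 20 drug metabolism genes was higher and 6 were lower in P1 heart TdTomato+ cells, with 14.7% of all genes called, and the 5 differences were unequal for 8 of 20, with 16.8% of all genes called. Over the mean of the 5 combinations, in which 4.4% of all genes were called higher and 3.99% lower, 4 of 17 cholesterol efflux genes were higher and 0 lower, among them the cholesterol hydroxylase gene Ch25h (1.03 ± 0.20, adjusted p = 0.00207) and the phospholipid transfer gene Pltp (0.23 ± 0.04, adjusted p = 4.91e-04). Of 19 uptake carriers 4 were higher and 0 lower, among them the glucose carrier gene Slc2a1 (0.31 ± 0.05, adjusted p = 5.27e-04). The mean hides unequal differences for Pltp (adjusted p = 6.41e-08 for equality). Pltp was lower in P1 lung TdTomato+ cells (-0.70, adjusted p = 1.94e-06). It was higher in those of P1 heart (0.68, adjusted p = 4.55e-05), P6 muscle (0.63, adjusted p = 1.24e-04) and 6W muscle (0.50, adjusted p = 0.0016). In P1 lung Apoe, the lipoprotein that accepts cholesterol from Abca1, was 2.52-fold higher in TdTomato+ cells (adjusted p = 7.25e-08). It was also higher in P6 muscle (2.04-fold, adjusted p = 4.49e-05) and 6W heart (1.45-fold, adjusted p = 0.0302). In P1 heart it was 6.27-fold lower (adjusted p = 2.17e-11). The part of the marker sums of other cell types in these Apoe differences was not tested.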

How the data were processed

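Counts per gene were deposited by the authors as whole numbers, not normalized, and STAR, featureCounts, edgeR and mouse build mm10 are named in the submitters' processing notes. The RNA integrity number was deposited by the authors as a score per library. Strand and the handling of reads that match several places are not given in the sources used here, and the labels and run sheets name different library kits. Counts were scaled by TMM, filtered with edgeR's filterByExpr and tested by quasi-likelihood in edgeR 4.0.16, calling genes with a Benjamini-Hochberg adjusted p, over all genes tested, below 0.05. Fractions were compared in 1 fit of 46 libraries with the 23 pairs as blocks, and ages and tissues in 1 fit per fraction of 23 libraries each. CPM used TMM-scaled totals, log2 CPM a prior count of 2, and RPKM the deposited exon length. The pairing was taken from the labels' replicate numbers. Partner libraries deviated together from their group means over 9451 genes (median r 0.321, above 0.1 in 22 of 23 pairs, -0.00725 in P6 muscle pair 5). Partners were each other's closest match in 18 of 23 pairs. They were not in P6 muscle pairs 2, 4 and 5, 6W heart pair 2 and 6W muscle pair 4. No library repeated another.

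Named were Abcg2, every member called between fractions, up to 8 called members with the largest rise and 8 with the largest fall in each comparison of age or tissue among those averaging 1 CPM or more in a group compared, the 5 genes most like Abcg2 and up to 2 genes per list and comparison, and other members once to account for them. The members and lists were chosen with earlier results of these data known. Alternatives were DESeq2 1.42.0, other scaling, no filter, no replicate block, each tissue and age fitted alone, P1 heart pair 1 included, 1 sequencing run, each replicate left out, and, chosen after seeing the data, P1 lung pairs 6, 7 and 8 or 6W heart pairs 5 and 6 left out. Of counts of 0, a limit of 3 counts covers counting error only. The sequence of TdTomato was not analysed here, and values of some members are not reported here.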

Additional observations from a re-analysis of the deposited data

Results flagged for a closer look

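Of 130 sets of libraries examined (13 members in 10 groups), 12 held 1 library whose level stood far from the others of its group, and chance alone gives about 1 in 20. In P1 heart TdTomato- cells, Abcb1b was lowest in library 3, at 7.73 CPM with the next at 10.5 CPM. In 6W heart TdTomato+ library 4, Abcc3 was highest at 3.41 CPM (next 0.274) and Abcb4 lowest at 5.28 CPM (next 11.07). In P1 lung TdTomato+ library 7, Abcb4 was highest at 1.08 CPM (next 0.0428). In P1 lung TdTomato- cells, Abca3 was highest in library 8 at 127 CPM (next 81.7), Abca1 in library 1 at 77.4 CPM (next 45.1) and Abcb4 in library 8 at 0.566 CPM (next 0), and Abcg2 was lowest in library 7 at 54.0 CPM (next 60.5). In P6 muscle, Abcc3 was highest in TdTomato+ library 1 at 17.0 CPM (next 8.22) and Abcb6 lowest in TdTomato- library 2 at 16.9 CPM (next 19.6). In 6W muscle, Abca1 was highest in TdTomato+ library 5 at 148 CPM (next 107) and Abcd3 lowest in TdTomato- library 5 at 42.6 CPM (next 47.4).

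The difference between the fractions was unequal over the 5 combinations of tissue and age for 6 members in edgeR. The Benjamini-Hochberg adjusted p was 2.65e-04 for Abcg1, 0.00487 for Abca3, 0.0203 for Abcb1a, 0.0228 for Abca1, 0.0247 for Abcd3 and 0.0352 for Abcc6. For Abcb1a the change of the difference from P1 to 6W heart had an adjusted p of 0.00944.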

How the results depend on the processing

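Of 105 alternatives to 19 counts and values, not counting single replicates left out, 76 gave the same reading and 29 did not; the cause was not tested. With P1 heart pair 1 included, mean Abcg2 was 0.373 in place of 0.268 (adjusted p = 0.279), members called with age fell to 11 in heart and 3 in muscle TdTomato+ cells, and members called were 0 for heart against muscle TdTomato+, unequal differences, P1 lung, P6 muscle, the mean of the 5 and the heart change, and 1 in P1 heart. There Abcb1a reversed in P1 heart (-0.254, adjusted p = 0.775) and in its heart change (0.139, adjusted p = 0.953), and Abcg2 reversed with age in heart TdTomato+ cells (-0.868, adjusted p = 0.264). Scaling by total counts moved the median of all genes by -0.26 with age in heart and by -0.128 in muscle TdTomato- cells, by -0.137 in muscle TdTomato+ cells, by -0.103 between the P1 heart fractions and by 0.12 for heart against muscle TdTomato+ cells. Without the replicate block, members called were 2 for unequal differences, 3 in P1 lung, 1 for the mean, and 0 in P1 heart and P6 muscle. Each tissue and age fitted alone with the replicate block gave 3 in 6W muscle, 3 in P1 lung, 2 in P6 muscle and 0 in P1 heart. DESeq2 gave 1 in 6W heart, 7 in P1 heart, 6 for the mean and 3 for the heart change. Within 1 run, heart against muscle gave 4 in TdTomato- and 1 in TdTomato+ cells. Without P1 lung pairs 6, 7 and 8 there were 8 for lung against heart TdTomato-, 2 for unequal differences, 0 in P1 lung and 1 for the mean. With 1 replicate left out, mean Abcg2 ran from 0.246 to 0.302. Members called ran from 18 to 24 and 18 to 22 with age in heart TdTomato+ and TdTomato- cells, 13 to 16 and 19 to 24 in muscle, 5 to 9 (5 without 6W muscle TdTomato+ replicate 3) and 8 to 11 for heart against muscle, 12 to 17 in both fractions for lung against heart, 3 to 7 for unequal differences (3 without P1 heart replicate 3), 1 to 8 in P1 heart (1 without replicate 2, 8 without 5), 4 to 8 in P1 lung (4 without replicate 6), 2 to 7 for the mean (7 without P1 heart replicate 5, 2 without 6W heart replicate 1) and 1 to 2 for the heart change, and were 0 in every such fit for P6 muscle (1 with all replicates), 6W heart, 6W muscle and the muscle change (0 with all replicates). Of 143 called values of single genes, 60 kept their call in every alternative run.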
